A study of Schizosaccharomyces pombe with 6 samples.

Results

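Fission yeast imports amino acids through permeases of the plasma membrane, proteins that span the membrane many times and carry their substrates inward along with protons. A budding or fission yeast genome encodes a family of such permeases, some selective for one class of amino acid and others broad, and cells adjust both their transcription and their stay at the cell surface to the quality of the nitrogen supply. In fission yeast the target of rapamycin complex TORC1, the GATA factor Gaf1, the ubiquitin ligase Pub1 and its arrestin-related adaptor Any1 are known to take part in that adjustment.

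The 10 genes described here, SPAC1039.01, *isp5* (SPAC1039.09), *put4* (SPAC869.10c), *cat1* (SPAC869.11), SPBC1652.02, *nrg1* (SPBPB2B2.01), *per1* (SPAP7G5.06), *dip5* (SPCC777.04), *vhc1* (SPBC18H10.16) and SPAC11D3.08c, were taken by their identifiers as amino acid transporter genes from the 6988 rows of the count table. They were compared between haploid *asp1-H397A aps1∆ siw14∆ spx1∆* cells and haploid wild-type cells, both labelled h-, with 3 cultures of each strain. Cells were in log phase at 30°C in ePMGT, enhanced pombe minimal glutamate medium with thiamine. The paper's strain list states that its strains carry mutations in *leu1*, *ura4*, *his3* and *ade6*, but it has no wild-type entry. Polyadenylated RNA was sequenced from each culture. The mutant carries *asp1-H397A*, which inactivates the pyrophosphatase domain of the inositol pyrophosphate kinase-phosphatase Asp1 and is marked with natMX, together with deletions of the pyrophosphatase genes *aps1* (kanMX) and *siw14* (hygMX) and of *spx1* (ura4MX), which encodes a predicted E3 ubiquitin ligase with an inositol pyrophosphate-binding SPX domain. Although the mutant is labelled h-, the paper's strain list gives the strain with these 4 alterations and markers as h+. The labels give a single strain number for each genotype. A difference between the strains cannot be assigned to any 1 of the 4 alterations or to the markers, and these cannot be told apart. A difference in mating type, if there was one, cannot be told apart from these either. The libraries are of the whole cell population, and a change in transcript level per cell cannot be told apart from a change in the fraction of cells that express a gene.

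The libraries held 20305111 to 22690741 counts in mutant cells and 16593476 to 21436751 counts in wild-type cells. *aps1* counted 307, 311 and 330 in mutant libraries, against 3083, 3657 and 3152 in wild-type libraries. *siw14* counted 107, 106 and 70 in mutant libraries, against 1925, 2666 and 2542 in wild-type libraries. *spx1* retained 2369, 2029 and 1915 counts in mutant libraries, against 4524, 6254 and 6452 in wild-type libraries, so reads were still counted in its gene model. The marker gene *ura4* had 9631, 8309 and 9154 counts in mutant libraries and 0 counts in each wild-type library, so the strains also differ in *ura4* expression. *asp1*, mutated rather than deleted, had 1034, 927 and 1030 counts in mutant libraries and 1199, 1417 and 1200 in wild-type libraries. The counts of *aps1*, *siw14*, *spx1* and *ura4* separated the libraries by their labelled strain. *aps1*, *siw14* and *spx1* were each reduced but not absent, with the largest remainder for *spx1*. The *asp1-H397A* mutation cannot be read from counts.

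Of the 10 genes, 6 fell and 2 rose in mutant cells at an adjusted *P* value of at most 0.05 (edgeR's quasi-likelihood test, Benjamini-Hochberg adjustment over all genes tested), and 2 did not pass. All 10 were among the 5947 genes kept for the test, of which 7.03% were lower and 5.33% higher by the same criterion. When a 2-fold or larger change and 100 or more normalized counts (counts scaled to a common library size) on average in the higher strain were also required, 5 of the 10 were lower and 0 were higher, against 1.72% lower and 0.37% higher over all genes tested. The 0 came from edgeR's quasi-likelihood test, and DESeq2 and limma-voom gave 0 as well, while 2 genes were higher at an unadjusted *P* value under 0.05. The median log2 fold change was -1.14 over the 10 genes and 0.0018 over all genes tested. In 7 of the 10 every mutant library was below every wild-type library, and in 2 every mutant library was above, against 17.3% and 16.4% of all genes tested. The plot of normalized counts by library shows these 10 genes in order of their fold change.

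**Figure D1:**
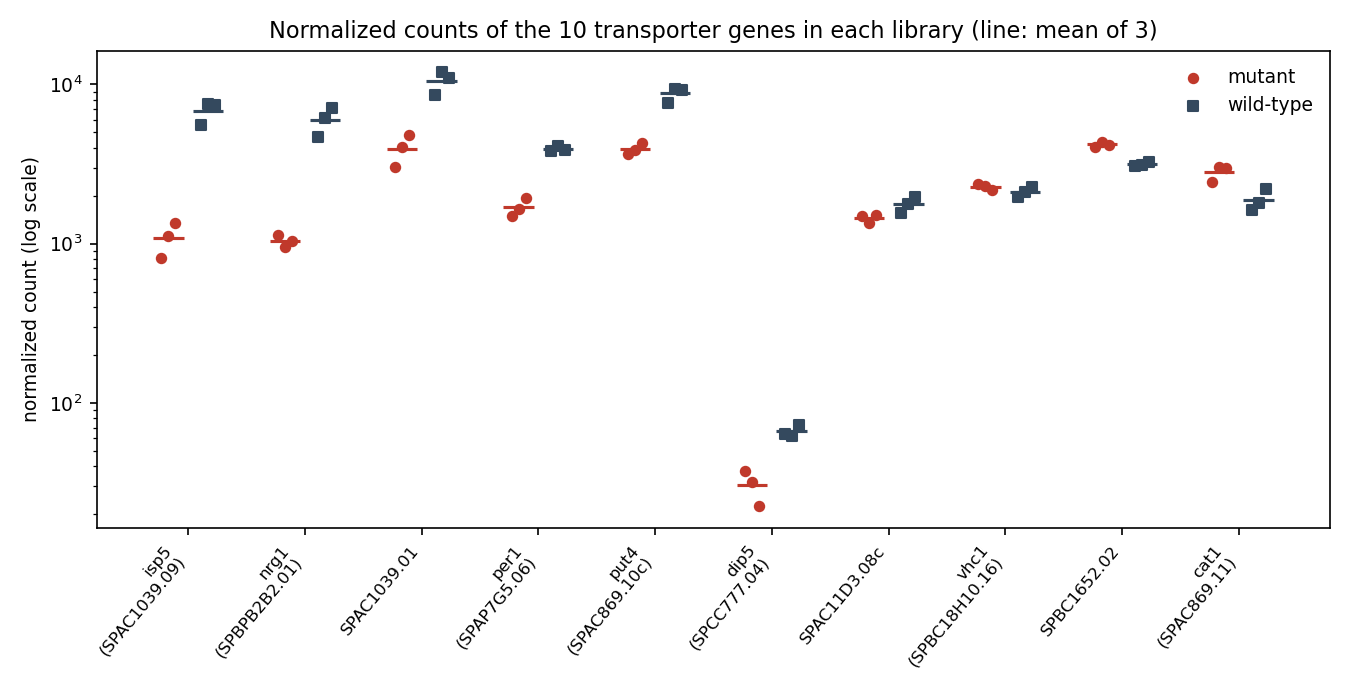
Normalized counts (log scale) of the 10 transporter genes in each of 3 mutant libraries (red circles, left) and 3 wild-type libraries (dark squares, right), with a line at the mean of each strain. Genes run from the most lowered to the most raised in the mutant, and the libraries of the strains overlap only for *vhc1*.

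The annotation did not bear out the grouping for every member. It names 9 of the 10 as amino acid permeases or amino acid transporters, and names *vhc1* as a vacuolar membrane cation-chloride cotransporter. The Vhc1 protein has 1050 residues, whereas the other 9 proteins have 521 to 594. Without *vhc1*, 6 of 9 genes fell and 2 rose, with a median log2 fold change of -1.16.

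Among the other 9, 4 proteins stood close to each other in sequence. Isp5, Nrg1, Cat1 and Per1 shared 50.7% to 75.5% of aligned residues over their 6 pairings, and 20.6% to 40.0% with the other members wherever at least 80% of the shorter protein could be aligned. The closest pair was Cat1 and Per1 at 75.5%, followed by Isp5 and Nrg1 at 55.5%. Put4 and Dip5 shared 39.0%, SPBC1652.02 and Cat1 40.0%, and SPAC1039.01 and SPAC11D3.08c 31.5%. Among annotated coding sequences, no member had a copy at 95% identity or more over at least 50% of its length.

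The largest falls were in *isp5* and *nrg1*, the closest relatives of each other after the *cat1* and *per1* pair. *isp5*, an amino acid transporter gene first found as induced in sexual differentiation, had 818, 1117 and 1344 normalized counts in mutant libraries and 5598, 7484 and 7388 in wild-type libraries. The highest mutant library was thus far below the lowest wild-type library, and the mean was 1093 ± 264 in mutant cells and 6823 ± 1062 in wild-type cells (SD, 3 libraries each), 6.24-fold lower in the mutant. On the log2 scale the change was -2.64 with a standard error of 0.18 (adjusted *P* value 2.86e-06). *nrg1*, annotated as an amino acid permease gene, had 1127, 957 and 1038.5 normalized counts in mutant libraries and 4667, 6116 and 7091 in wild-type libraries. Here the mutant libraries lay close together and the wild-type libraries spread 1.52-fold. The mean of *nrg1* was 1041 ± 84.7 in mutant cells and 5958 ± 1220 in wild-type cells, 5.72-fold lower in the mutant (log2 fold change -2.52, standard error 0.15, adjusted *P* value 9.28e-07).

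SPAC1039.01, *per1* and *put4* fell by 2.23-fold to 2.65-fold. SPAC1039.01, annotated as an amino acid permease gene, had 3030, 4026 and 4784 normalized counts in mutant libraries and 8602, 11895 and 10905 in wild-type libraries, and the 2 sets did not overlap. Its log2 fold change was -1.41 (standard error 0.17, adjusted *P* value 0.000249). *per1* had 1497, 1653 and 1943 normalized counts in mutant libraries and 3829, 4080 and 3864 in wild-type libraries, where it varied little. Its log2 fold change was -1.21 (standard error 0.11, adjusted *P* value 3.10e-05). *put4*, which is annotated as a proline transporter gene, had 3655, 3882 and 4277 normalized counts in mutant libraries, against 7644, 9424 and 9292 in wild-type libraries. Every mutant library was again lower, and the log2 fold change came to -1.16 (standard error 0.11, adjusted *P* value 5.51e-05). The 95% intervals of *per1* (-1.45 to -0.97) and *put4* (-1.40 to -0.91) reach above a log2 fold change of -1, so for these genes a decrease of less than 2-fold lies within the error of the estimate.

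*dip5* was the least abundant member by far. Dip5 is named after the dicarboxylic amino acid permease of budding yeast, which carries glutamate and aspartate. It had 41, 31 and 24 counts in mutant libraries, against 56, 66 and 66 counts in wild-type libraries, and 30.4 ± 7.5 normalized counts in mutant cells against 66.2 ± 5.8 in wild-type cells. On the log2 scale *dip5* changed by -1.12 (standard error 0.24, adjusted *P* value 0.0106), but its level was below the minimum of 100 normalized counts, and without mutant replicate 3 the adjusted *P* value was 0.0657.

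*cat1* and SPBC1652.02 changed the other way. *cat1*, which encodes the plasma membrane transporter of arginine and lysine, had 2446, 3039 and 3003 normalized counts in mutant libraries and 1635, 1793 and 2206 in wild-type libraries. All mutant libraries were higher, and the mean was 2829 ± 332 in mutant cells and 1878 ± 294 in wild-type cells, 1.51-fold higher in the mutant (log2 fold change 0.59, standard error 0.13, adjusted *P* value 0.0118). SPBC1652.02, annotated as an amino acid transporter gene of the amino acid, polyamine and organocation superfamily, had 4048, 4381 and 4192 normalized counts in mutant libraries and 3078, 3118 and 3244 in wild-type libraries. The replicates lay close together, the highest library being 1.08 times the lowest in mutant cells and 1.05 times the lowest in wild-type cells. SPBC1652.02 rose 1.34-fold (log2 fold change 0.42, standard error 0.09, adjusted *P* value 0.00907). Neither rise reached 2-fold, and each passed in 3 of the 6 fits that left out a library. The adjusted *P* value of *cat1* was 0.0622 without wild-type replicate 2, 0.0571 without mutant replicate 2 and 0.0669 without mutant replicate 3, and that of SPBC1652.02 was 0.0810, 0.0842 and 0.0591 without the same libraries.

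*vhc1* and SPAC11D3.08c did not pass the test. *vhc1* had 2353, 2313 and 2182 normalized counts in mutant libraries and 1954, 2121 and 2257 in wild-type libraries, which overlap. Its log2 fold change was 0.11 with a 95% interval of -0.09 to 0.32 (adjusted *P* value 0.490). SPAC11D3.08c, annotated as an amino acid permease gene, had 1489, 1352 and 1521 normalized counts in mutant libraries and 1554, 1776 and 1957 in wild-type libraries, so that each mutant library was below each wild-type library. Its log2 fold change was -0.28 with a 95% interval of -0.52 to -0.03, an unadjusted *P* value of 0.0296 and an adjusted *P* value of 0.131. The adjusted *P* value of SPAC11D3.08c was 0.0379 when libraries were scaled by their totals and 0.0170 without wild-type replicate 1.

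The order of the members by transcript level differed between the strains. Levels are given here as normalized counts per kb of annotated exon, so that genes of different length can be set side by side. In mutant cells *put4* was highest at 1976 ± 158 per kb, followed by SPAC1039.01 at 1589 ± 354, SPBC1652.02 at 1234 ± 49.0 and *cat1* at 1208 ± 142. Below a gap came *per1* at 742 ± 98.9 per kb, SPAC11D3.08c at 650 ± 40.1, *isp5* at 577 ± 139, *nrg1* at 485 ± 39.4 and *vhc1* at 460 ± 18.02, with *dip5* last at 16.9 ± 4.2. Neighbours in that order overlapped between libraries except after *cat1* and after *vhc1*. In wild-type cells *put4* was at 4409 ± 498 per kb, SPAC1039.01 at 4216 ± 680, *isp5* at 3604 ± 561 and *nrg1* at 2774 ± 568, and each of these overlapped the next. The others in wild-type cells were *per1* at 1714 ± 59.4 per kb, SPBC1652.02 at 923 ± 25.4, *cat1* at 802 ± 126, SPAC11D3.08c at 788 ± 90.2, *vhc1* at 426 ± 30.6 and *dip5* at 36.8 ± 3.2. In that order *nrg1*, *per1*, SPAC11D3.08c and *vhc1* were each apart from the gene after them. Among all protein-coding genes ranked by level per kb, *isp5* stood at percentile 42.0 in mutant cells and 85.7 in wild-type cells, and *nrg1* at 35.7 and 82.2, while *cat1* stood at 65.8 in mutant cells and 54.1 in wild-type cells.

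Summed over the 9 amino acid transporter genes, the level per kb was 8478 ± 869.3 in mutant cells and 19267 ± 2454 in wild-type cells. The makeup of that sum changed as well. *isp5* made up 6.75 ± 0.97% of it in mutant cells against 18.7 ± 0.61% in wild-type cells, and *nrg1* 5.78 ± 0.99% against 14.3 ± 1.41%. *cat1* made up 14.2 ± 0.83% in mutant cells against 4.17 ± 0.42% in wild-type cells, and SPBC1652.02 14.6 ± 1.28% against 4.84 ± 0.57%. *put4* kept a like share of 23.4 ± 0.73% in mutant cells and 22.9 ± 0.44% in wild-type cells, its fall matching that of the sum. These shares are of transcripts and were not tested, and they say nothing of the amount of each protein at the membrane.

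**Figure D2:**
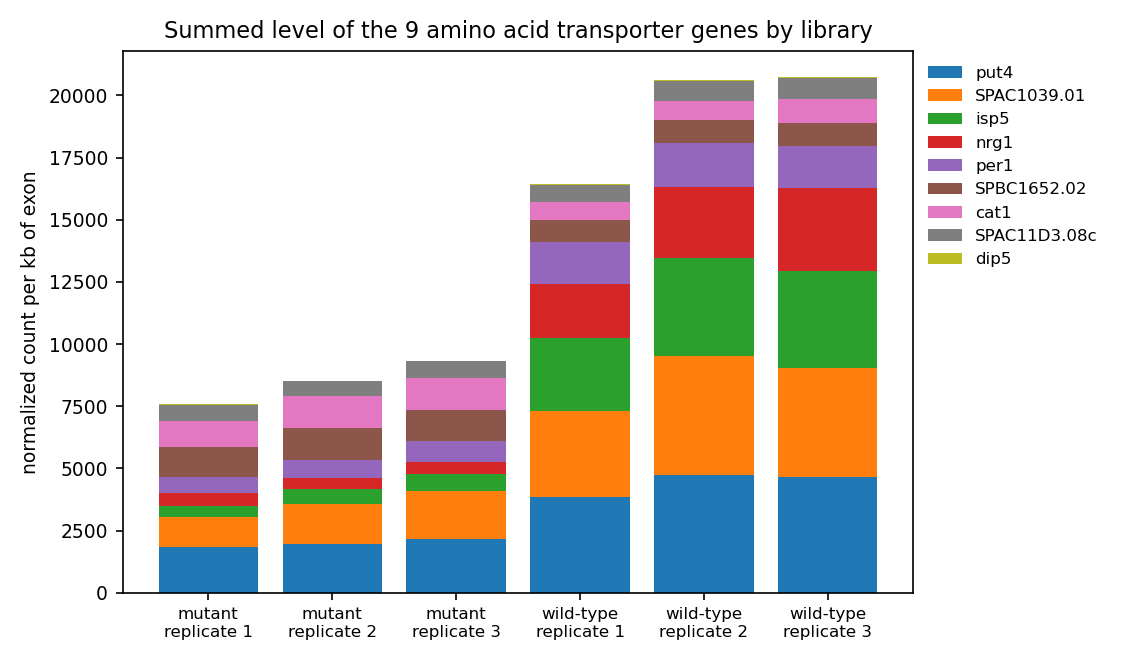
Stacked normalized counts per kb of exon of the 9 amino acid transporter genes (without *vhc1*) in each of 3 mutant libraries (left) and 3 wild-type libraries (right), largest contributor in wild-type at the bottom. The sum was 8478 ± 869.3 in mutant cells and 19267 ± 2454 in wild-type cells, with *isp5* and *nrg1* thin in the mutant bars.

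Of the pairs named above by sequence, *isp5* and *nrg1* both fell, with log2 fold changes of -2.64 for *isp5* and -2.52 for *nrg1*. *put4* and *dip5* also fell, with -1.16 for *put4* and -1.12 for *dip5*, the latter below 100 normalized counts. *cat1* and SPBC1652.02 both rose, with 0.59 for *cat1* and 0.42 for SPBC1652.02. The protein of SPBC1652.02 was almost as close to Per1, at 39.3% identity against 40.0% to Cat1, and *per1* fell. SPAC1039.01 fell, while SPAC11D3.08c did not pass. *cat1* also differed in direction from *isp5* and *nrg1*, at 50.8% identity of Cat1 to Isp5 and 52.3% to Nrg1. Cat1 and Per1 are the most similar pair of proteins, and *cat1* rose whereas *per1* fell. The log2 ratio of *cat1* to *per1*, a pair picked after the values were seen, was 0.71, 0.88 and 0.63 in mutant libraries and -1.23, -1.19 and -0.81 in wild-type libraries, a difference of 1.81 that is given without a test. The members also include neighbours on chromosome I. *put4* and *cat1* are adjacent genes, and the log2 ratio of *put4* to *cat1* was 0.58, 0.35 and 0.51 in mutant libraries and 2.22, 2.39 and 2.07 in wild-type libraries, a difference of -1.75. SPAC1039.01 and *isp5* lie on the same cosmid, and their log2 ratio was 1.89, 1.85 and 1.83 in mutant libraries and 0.62, 0.67 and 0.56 in wild-type libraries, a difference of 1.24, since *isp5* fell more. For each of these 2 planned pairs an exact two-sided permutation test gave a *P* value of 0.1, or 0.1 adjusted over both pairs, which is the smallest that 3 libraries against 3 can give, so this exact test cannot reach 0.05 here.

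**Figure D3:**
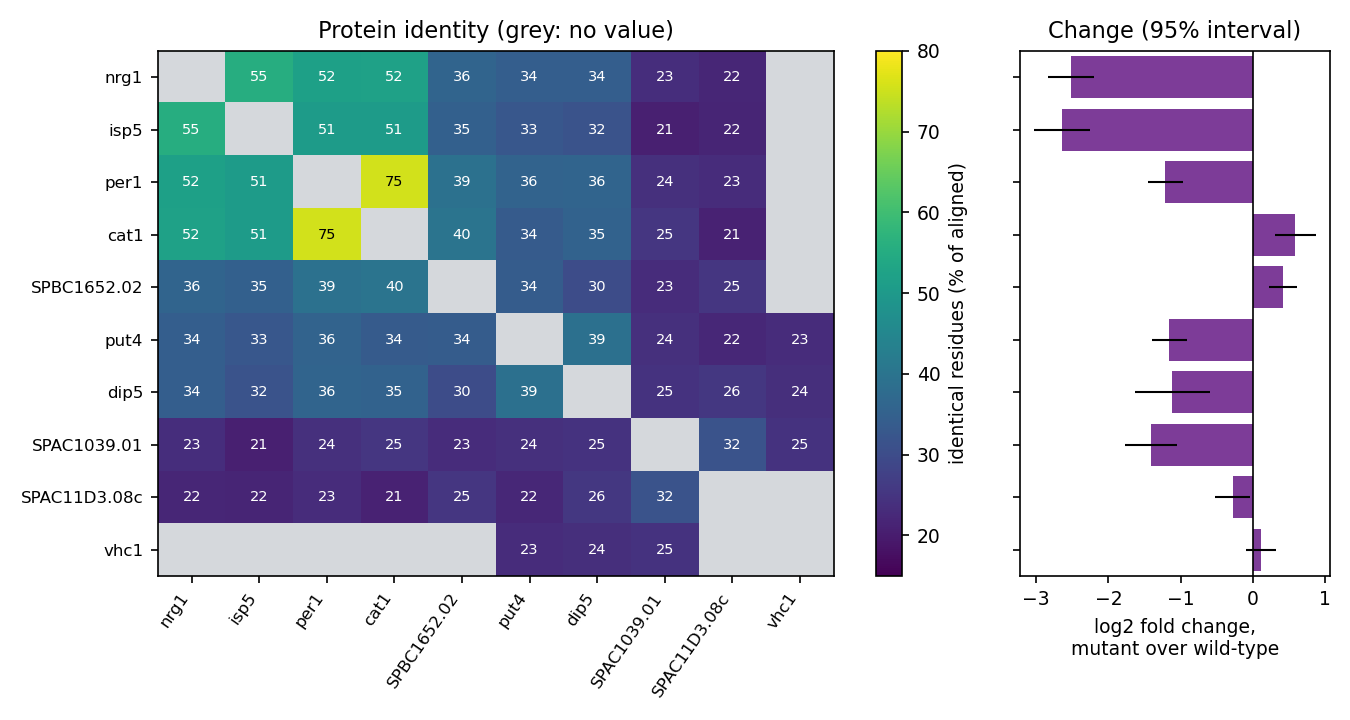
Left, percent of identical residues between aligned member proteins, with grey where under 80% of the shorter protein was aligned and along the diagonal. Right, log2 fold change of each gene, mutant over wild-type, with its 95% interval. *per1* and *cat1*, at 75.5% identity, have bars on opposite sides of 0.

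Libraries of 1 strain also differed among themselves, and some members correlated positively in those differences while others correlated negatively. Among mutant libraries, replicate 3 was highest and replicate 1 lowest for SPAC1039.01, *isp5*, *put4* and *per1*, but not for *nrg1*. As a description over the 6 libraries, the deviations from the strain means correlated at r = 0.991 between SPAC1039.01 and *isp5*, 0.914 between SPAC1039.01 and *put4*, and 0.905 between *isp5* and *put4*. *nrg1* and *isp5* correlated at 0.286, whereas *nrg1* and SPAC11D3.08c correlated at 0.949. *dip5* correlated with *per1* at -0.958, with SPAC1039.01 at -0.704 and with *isp5* at -0.691, and *per1* with *vhc1* at -0.412. *dip5* had at most 66 counts in any library, so counting noise weighs on its values. The pairs given here are a selection from all pairings of the members. The libraries share their scaling factors, and no test was made of these values.

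Over the same 6 libraries, the 5 protein-coding genes outside the members whose profile was most like that of *isp5* were *vsb1* (r = 0.998), SPAPB24D3.02c (0.997), *shu1* (0.995), *uck2* (0.995) and SPBC359.01 (0.995). The 6 points form 2 clusters, 1 per strain, and r over them reads mostly the distance between the clusters. SPAPB24D3.02c and SPBC359.01 are annotated as amino acid permease genes, *vsb1* as a sulfate transporter gene and *uck2* as a uracil phosphoribosyltransferase gene, and *shu1*, a heme uptake gene, averaged only 8.3 normalized counts in mutant cells and 46.4 in wild-type cells. Of the members, *put4* and *per1* were closest to *isp5*, each at 0.996, above the last 3 of these 5 genes.

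Another 12 genes annotated as amino acid transporters could be compared with the members. Of these, 4 fell, 1 rose and 7 did not pass, with a median log2 fold change of -0.27. Over all genes tested, 7.03% were lower and 5.33% higher. SPBC359.01 had 582, 622 and 746 normalized counts in mutant libraries and 4138, 5274 and 4807 in wild-type libraries, a deeper fall than that of any member (log2 fold change -2.87, standard error 0.13, adjusted *P* value 8.60e-08). *aat1* had 3523 ± 718 normalized counts in mutant cells and 9419 ± 438 in wild-type cells (log2 fold change -1.42, adjusted *P* value 5.27e-05). The cysteine transporter gene SPBPB10D8.01 had 271 ± 36.1 in mutant cells and 672 ± 24.9 in wild-type cells (log2 fold change -1.31, adjusted *P* value 0.000234). SPAPB24D3.02c fell by less than 2-fold, to 1237 ± 94.5 normalized counts in mutant cells against 2409 ± 186 in wild-type cells (adjusted *P* value 0.000136). The gene that rose was SPCC74.04, named after its values were seen and annotated as a transporter of gamma-aminobutyric acid or polyamines, at 893 ± 72.9 normalized counts in mutant cells and 540 ± 43.1 in wild-type cells (log2 fold change 0.72, adjusted *P* value 0.00521). The number that rose was 3 without wild-type replicate 3.

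**Figure D4:**
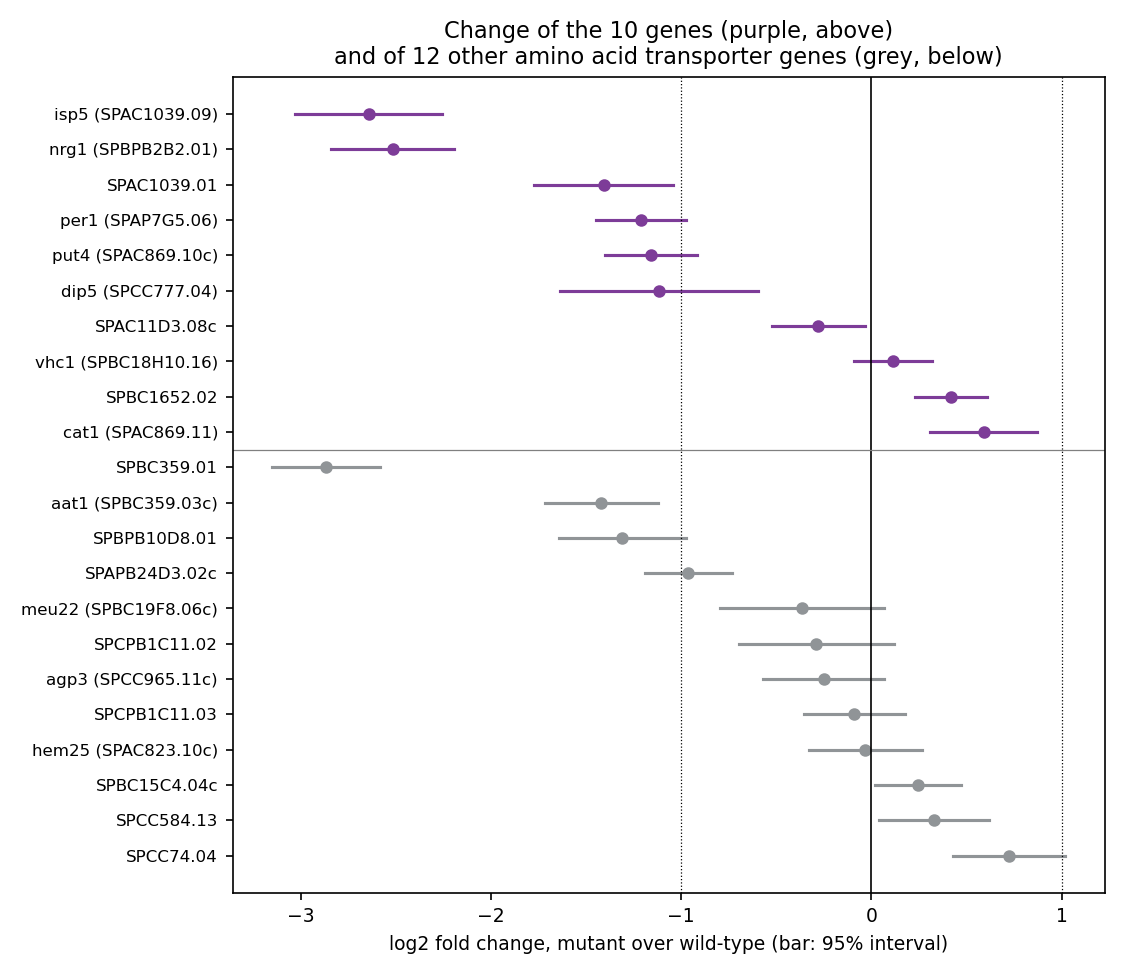
Log2 fold change, mutant over wild-type, of the 10 members (purple, above) and of 12 other annotated amino acid transporter genes (grey, below), with 95% intervals and dotted lines at a 2-fold change. Of the members, 6 fell and 2 rose, and of the others 4 fell and 1 rose.

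Genes for peptide import and for vacuolar amino acid transport changed in both directions. Of 8 tested, 2 fell and 2 rose, each by less than 2-fold, against 7.03% lower and 5.33% higher of all genes tested. The median log2 fold change of the 8 was -0.02. *isp4*, which encodes an oligopeptide transporter of the plasma membrane, had 7751, 7707 and 7907 normalized counts in mutant libraries and 14464, 14703 and 13784 in wild-type libraries (log2 fold change -0.88, standard error 0.09, adjusted *P* value 8.54e-05). *stm1*, annotated as a G-protein-coupled receptor gene, also fell (log2 fold change -0.41, adjusted *P* value 0.0248), whereas the vacuolar amino acid transporter genes *avt5* and *fnx1* rose with log2 fold changes of 0.56 and 0.32 (adjusted *P* values 0.0123 and 0.0413). The number that rose was 0 without wild-type replicate 2 and without any 1 of the mutant libraries, and 3 without wild-type replicate 3. The number that fell was 1 without wild-type replicate 2 and without any 1 of the mutant libraries.

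Of 12 genes for regulators of amino acid uptake, 0 passed in the edgeR, DESeq2 and limma-voom fits alike. In the edgeR fit 7.03% of all genes tested were lower and 5.33% higher, and 4 of the 12 had an unadjusted *P* value under 0.05. *gaf1* had 5012 ± 306 normalized counts in mutant cells and 4207 ± 221 in wild-type cells (log2 fold change 0.25, adjusted *P* value 0.103). The others were *rhb1*, which encodes the Rheb GTPase upstream of TORC1, *isp7*, an oxygenase gene tied to amino acid uptake, and *tsc2*, which encodes a Rheb GTPase-activating protein. Their log2 fold changes were -0.24 for *rhb1*, -0.31 for *isp7* and 0.23 for *tsc2*, with adjusted *P* values of 0.107 for *rhb1*, 0.152 for *isp7* and 0.160 for *tsc2*. With libraries scaled by their totals 1 was lower and 2 were higher, and without wild-type replicate 3 the numbers were 2 and 4. Transcript levels do not report the activity of these regulators.

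The chromosomal surroundings of the members were looked at by gene order. Of 17 tested neighbouring genes that are not members, 7 fell and the others did not pass, against 7.03% lower over all genes tested. The median log2 fold change of the 17 was -0.25. With the 2-fold cutoff 1.72% of all genes tested were called lower, and 3 of the 17 were. These were *mmf2*, *atd2* and *say1*. *mmf2*, beside *isp5*, is annotated as an isoleucine synthesis gene (log2 fold change -1.30, adjusted *P* value 0.0024). *atd2*, beside *cat1*, is annotated as an aldehyde dehydrogenase gene (log2 fold change -1.48, adjusted *P* value 0.000337). *say1*, beside *nrg1*, is annotated as a sterol deacetylase gene (log2 fold change -1.76, adjusted *P* value 0.000159). *cat1* thus rose between *atd2* and *put4*, both of which fell.

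Most members have an antisense neighbour in the annotation, where 9 of the 10 genes overlap a gene on the opposite strand, and *isp5* overlaps none. The noncoding RNA SPNCRNA.577, opposite SPBC1652.02 and picked for its values, had 52, 19 and 55 counts in mutant libraries and 542, 576 and 376 in wild-type libraries (log2 fold change -3.72, standard error 0.29, adjusted *P* value 1.002e-05), while SPBC1652.02 itself rose. Its counts came to 7.30% of those of SPBC1652.02 over all libraries. The libraries were made with a kit that keeps the strand, but whether the counting used strand is not stated in the sources read here, and the part of one transcript in the count of the other was not tested. The same holds for *dip5*, whose counts were below those of the overlapping SPCC777.03c. That gene had 365, 342 and 368 counts in mutant libraries and 299, 317 and 231 in wild-type libraries. It holds as well for *vhc1*, where the overlapping coding gene SPBC18H10.17c had 48.1% of the *vhc1* counts. Opposite *put4*, SPNCRNA.1091 had 0.684% of the *put4* counts and did not pass (log2 fold change -0.20, adjusted *P* value 0.681). The other overlapping RNAs were not among the counted genes.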

How the data were processed

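RNA-seq reads of 6 libraries were mapped by the authors with HISAT2 2.1.0 to genome build ASM294v2 and counted per gene with HTSeq 0.10.0, per the labels' processing notes. The deposited values used here are whole-number counts, not normalized. A second deposited table of the authors' DESeq2 comparison holds average counts, log2 fold changes and p-values and was not used.

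Counts were fitted with edgeR 4.0.16 (R 4.3.3) in a quasi-likelihood model of strain after TMM scaling and filterByExpr, which kept 5947 of 6988 rows, with Benjamini-Hochberg adjustment over these. Normalized counts were obtained by dividing by each library's TMM-scaled total, set to a mean of 1 over libraries. A call required an adjusted p of 0.05 or less, a 2-fold change and a mean of at least 100 normalized counts in the higher strain. DESeq2 1.42.0 and limma-voom 3.58.1, other scalings and filters, a replicate block and leaving out each library were the alternatives. The fit was also run on simulated counts, with dispersions taken from these data and outcomes not given here. Known changes were placed only in genes with a mean of at least 100 counts, so genes as low as *dip5* were not covered. Cultures are called biological replicates by the study, and no pair of replicates agreed within counting noise (chi-square per degree of freedom 5.82 to 64.2).

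The members and gene lists were chosen with earlier results of these data known. Named were all members, at most 4 genes per list, taken by smallest p-value, neighbours of members that were called, and the 5 protein-coding genes outside the members most like *isp5* by Pearson's r of log2 normalized counts with a pseudocount of 1. SPCC74.04 and the overlapping genes were named after their values were seen. The listed SPBC460.01c and *vba2* were not analysed here. Names, exon lengths, gene order, overlaps and protein alignments (Biopython 1.88; blastn 2.17.0 for copies) came from the RefSeq annotation of ASM294v3 by gene ID, to which 6848 rows could be paired. Because that build is not the one counted on, coordinates and sequences are not given.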

Additional observations from a re-analysis of the deposited data

How the results depend on the processing

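The 5 members called lower and the 0 called higher were the same number under all 13 alternatives, and each member kept its call and its direction in all 13. The number of members that fell without the fold cutoff was 7 with libraries scaled by their totals and 5 to 7 when each library was left out, and the number that rose was 0 to 2, with 0 without wild-type replicate 2, mutant replicate 2 or mutant replicate 3. Leaving out each library gave 1 to 3 rises among the other amino acid transporter genes, 1 to 2 falls and 0 to 3 rises among peptide and vacuolar transporter genes, and 0 to 2 falls and 0 to 4 rises among regulators. Scaling by library totals, which moved the median log2 fold change by -0.03, gave 1 fall and 2 rises among the regulators. With a replicate block the rises among peptide and vacuolar transporter genes numbered 1, and no other count moved. The replicate numbers did not pair the libraries, since deviations of same-numbered libraries correlated at -0.034, -0.029 and -0.057. Among results of single genes 334 kept their side of the threshold, 20 lost it and 9 gained it, and none changed sign. The log2 ratio differences ranged over 1.21 to 1.27 and -1.83 to -1.67. The cause of these shifts was not tested. Depth limits *dip5* most, with at most 66 counts in any library.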
